A study of Mus musculus with 3 samples.

Results

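Long intergenic non-coding RNAs (lincRNAs) were read on a mouse Agilent array by the probes whose name begins A_30_P. They were all probes of that name prefix that are not control probes, 16251 of 55681 (29.2%), and 16246 of them had a usable spot on every array. They belong to 4622 entries, where an entry is 1 genomic interval on 1 strand or 1 named transcript. Of these entries, 4610 are given by mm9 (NCBI37) coordinates and 12 by a transcript name, with 57 probes. An entry holds a median of 3 probes (1 to 10). The intervals span a median of 10676 bp (62 to 7128487 bp), and 1067 of the 3543 distinct intervals are probed on both strands.

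Bone marrow of male mice aged 8 weeks gave the primary mesenchymal stem cells (MSCs). RNA was taken before induction (day 0) and after 3 or 21 days of osteogenic induction, for which the medium held ascorbic acid (50 μg/mL) together with β-glycerophosphate (10 mM). All cultures shared the base medium, αMEM with FBS (10%) and the antibiotics penicillin (100 U/mL) and streptomycin (100 μg/mL). Each of the 3 groups, MSC day 0, osteogenic day 3 and osteogenic day 21, has 1 array. Differences are therefore between single arrays, with no replicate check and no test, and neither cultures nor animals contribute a measured spread. The labels do not say how many animals gave cells. In bulk RNA, a change in the number of cells of a type and a change in RNA per cell cannot be told apart.

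LincRNAs are transcripts from the stretches between protein-coding genes. They are usually spliced and polyadenylated, do not code for protein, and are commonly less abundant and more restricted to particular cell types than messenger RNAs. Known members act in the nucleus on chromatin, on imprinted gene clusters or in nuclear bodies, and others act in the cytoplasm or serve as precursors of small RNAs. H19 is an imprinted transcript and the host of the microRNA miR-675. Neat1 is the scaffold of nuclear paraspeckles, and Malat1, its neighbour, resides in nuclear speckles.

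The mature sequences of the H19 microRNA are shown because H19 had the largest differences among the named transcripts. The arrays read the H19 host transcript and not the microRNA. They are from RefSeq on GRCm38.p6, reverse strand of chromosome 7 (positions 142577112 to 142577133 for the 5p arm and 142577078 to 142577099 for the 3p arm), with the seed, bases 2 to 8, in capitals.
mmu-miR-675-5p: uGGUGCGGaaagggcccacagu
mmu-miR-675-3p: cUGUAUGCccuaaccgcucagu

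The promoters of Malat1 and Tug1 are shown because the first transcript was lower at both later days and the second differed from day 0 by 0.22 log2 or less on all its lincRNA probes with the scaling used. Each runs from 250 bases before to 50 bases after the start in RefSeq (GRCm38.p6, reverse strand, 19:5802623-5802922 and 11:3648765-3649064), with each CG dinucleotide in capitals. The CG pair was searched on the strand shown, and it reads the same on the other. Malat1 holds 10 and Tug1 37 of them. Of 32851 promoters of this length, 43.5% hold at least as many as Malat1 and 5.58% at least as many as Tug1, with a median of 7. This is a description of the windows only. H19 and Neat1 were not matched in the promoter table.
Malat1: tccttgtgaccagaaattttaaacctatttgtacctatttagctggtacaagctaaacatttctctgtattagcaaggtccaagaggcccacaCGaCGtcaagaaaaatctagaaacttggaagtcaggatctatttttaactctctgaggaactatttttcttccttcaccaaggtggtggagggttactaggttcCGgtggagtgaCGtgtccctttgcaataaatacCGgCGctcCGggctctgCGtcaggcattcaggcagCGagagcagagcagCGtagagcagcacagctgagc
Tug1: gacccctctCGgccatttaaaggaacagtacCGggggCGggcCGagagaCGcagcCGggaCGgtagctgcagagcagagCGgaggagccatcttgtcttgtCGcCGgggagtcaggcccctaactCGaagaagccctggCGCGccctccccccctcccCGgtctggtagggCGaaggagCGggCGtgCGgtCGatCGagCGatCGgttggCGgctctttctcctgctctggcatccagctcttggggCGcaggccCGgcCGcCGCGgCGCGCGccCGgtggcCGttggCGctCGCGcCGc

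Slide and scan are common to the arrays of day 0 and day 21, whereas day 3 has its own. Both comparisons with day 3 therefore cannot be told apart from slide and scan, and day 21 against day 0 lies within 1 slide. All 7 MSC and stromal markers looked for were well above background on each array. Their level was not constant, with a summed signal of 66701, 121985 and 174095 in the order of the days. Pdgfra (57.2, 1546 and 2197), Ly6a (3484, 44365 and 35503) and Cxcl12 (11161, 10597 and 61200) ended above their day 0 signal. Thy1 and Pdgfrb did so too, whereas Eng and Lepr ended below it. Of 8 osteoblast markers, 4 were detected at day 0, 6 at day 3 and 7 at day 21, and Sp7, a transcription factor of committed osteoblasts, was so on no array. The 8 summed to a signal of 62394, 67853 and 55841 in the same order, nearly all of it Col1a1 (61666, 65266 and 49263). Spp1 read 625, 2115 and 4613 and Bglap2 64.8, 337 and 856, and Alpl, Ibsp and Dmp1 were also highest at day 21, at 328, 720 and 36.1. Runx2 did not rise with them and was lowest at day 21 (18.74, 20.67 and 16.04). Of 6 adipocyte markers, 4, 6 and 6 were above background, and their summed signal was 1281, 6027 and 181687. All 4 chondrocyte markers were above background on each array, with a summed signal of 12336, 12070 and 59863. Comp carried the day 21 sum (434, 2530 and 48888), whereas Col2a1 read 11455, 8722 and 10171 and Acan 177, 52.7 and 100.2. Of the 4 macrophage and blood markers with a probe, Ptprc and Adgre1 were above background on no array. Csf1r (575, 799 and 627) and Lyz2 (20.6, 36.5 and 66.9) were above it on each array. The summed signal of the 4 was 605, 848 and 704, most of it Csf1r. Of the 2 endothelial markers only Pecam1 was above background. The part of these markers' cells in the lincRNA differences was not tested.

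H19 was far higher in both osteogenic cultures than in the MSCs, and this was seen with each of its 5 probes. The probe with the middle signal read 278 at day 0, 9664 at day 3 and 12960 at day 21. The lowest of the 5 probes read 203, 8595 and 10630, and the highest read 1124, 45078 and 54486. The day 0 array was low and both later arrays were high on every probe. The probes' log2 differences (after subtracting each array's 75th percentile) averaged 5.25 ± 0.12 (SD over 5 probes) at day 3 against day 0, a 37.9-fold higher level. At day 21 against day 0 the mean was 5.47 ± 0.10 (44.3-fold). Between day 21 and day 3 it was 0.22 ± 0.07, and from 0.22 to 0.74 over the scalings tried, so its size depends on the scaling. No RefSeq-named gene probe matched H19 on this array. The SD over probes of one transcript describes the array, not cultures. The technical SD of a log2 difference had a median of 0.16 over 399 probes spotted 10 times, none of them a lincRNA probe, and of 0.08 among the brightest of these, where H19 lies at the later days.

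Neat1 was highest at day 21. Its 5 probes read between 524 and 1194 at day 0, between 785 and 1510 at day 3 and between 1854 and 4341 at day 21. Each probe was highest at day 21, and each was also slightly higher at day 3 than at day 0. The mean log2 difference was 0.50 ± 0.18 at day 3 against day 0 and 1.76 ± 0.14 at day 21 against day 0, which is 3.38-fold. With spike-in scaling the day 3 difference was 0.02, so its size rests on the scaling. The day 21 difference was 1.54 there. A separate gene probe for Neat1 read 1212, 2077 and 5137, with differences of 0.76 and 1.94.

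Malat1, listed on the array as NEAT2, was lower in both osteogenic cultures. Its 3 probes read 241 to 280 at day 0, 81.2 to 102 at day 3 and 78.1 to 106 at day 21. All 3 were high at day 0 and low at both later days. The mean log2 difference was -1.50 ± 0.08 at day 3 and -1.72 ± 0.27 at day 21 (3.29-fold lower). The gene probe of Malat1 read 250, 108 and 98.6, with differences of -1.23 and -1.49. All 3 lincRNA probes were past 2-fold in both comparisons with day 0, as were all 5 H19 probes. With normexp and quantile scaling the Malat1 probes gave -1.21 to -0.94 at day 3, so not all 3 stayed past 2-fold there. Over all non-control probes measured on both arrays, 13.8% were past 2-fold at day 3 against day 0 and 28.5% at day 21 against day 0. H19 and Malat1 were the only 2 of the 12 named transcripts with every probe past 2-fold at day 3.

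Tug1, a ubiquitous lincRNA first described in the retina, was near level across the days. Its 5 probes read 94.6 to 470 at day 0, 105 to 478 at day 3 and 113 to 558 at day 21. The mean log2 differences against day 0 were 0.12 ± 0.07 and 0.13 ± 0.05. With spike-in scaling they were -0.36 and -0.08, so their sign depends on the scaling. The 3 RefSeq-named Tug1 probes gave differences at day 21 from -0.10 to 0.82, a wider spread than the lincRNA probes.

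Pantr1, listed as BRN1-A, is a lincRNA next to a neural transcription factor gene. Its 4 probes read 102 to 264 at day 0, 144 to 407 at day 3 and 133 to 327 at day 21. They were highest at day 3, with mean differences of 0.57 ± 0.08 at day 3 and 0.25 ± 0.09 at day 21 against day 0. Its gene probe gave 0.55 and 0.05. None of these was past 2-fold, and with spike-in scaling the lincRNA probes' means were 0.09 and 0.03.

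Xist, the transcript that coats the inactive X chromosome in female cells, was well above background with all 5 of its probes on all 3 arrays, although the labels name male mice. The 5 probes read 108 to 403 at day 0, 100.1 to 273 at day 3 and 160 to 523 at day 21. Both RefSeq-named Xist probes were also above background on each array, at 17 to 51.7. The Y-linked genes Ddx3y and Eif2s3y were above background on each array too, at 358, 211 and 283 and at 436, 318 and 349. Xist and Y-linked transcripts were thus both detected at every day, and whether they came from the same cells was not tested. The Xist differences were -0.42 ± 0.18 at day 3 and 0.36 ± 0.11 at day 21 against day 0. Day 21 was the highest on each probe, by 0.78 ± 0.13 over day 3. None of the 5 probes of Tsix, its antisense partner, was above background on any array.

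The other named transcripts were mostly below background. Kcnq1ot1, the imprinting antisense transcript of the Kcnq1 cluster, had 1 of 5 probes above background, which read 328, 673 and 200. That probe was 2.02-fold higher at day 3 than at day 0 and 3.67-fold lower at day 21 than at day 3. The log2 difference at day 3 was 1.02, and it was under 1 with spike-in scaling (0.54), normexp (0.79) and equal lincRNA medians (0.93). One gene probe of Kcnq1ot1 behaved otherwise, at 65.9 on day 0, not well above background at day 3 and 47.2 on day 21. The 2 sets of probes of this transcript therefore disagree, and only 1 of its 5 lincRNA probes was measured. Hotair had 1 of 5 probes above background on all arrays (39.3, 52.4 and 42.7) and Nron had 1 of 5 (25.9, 45.0 and 34.2). A second Nron probe (10.2, 23.1 and 14.1) was above background at day 3 and day 21 but not at day 0. Pinc and lincP21 (Trp53cor1 in RefSeq) had none of 5 above background on any array.

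**Figure D1:**
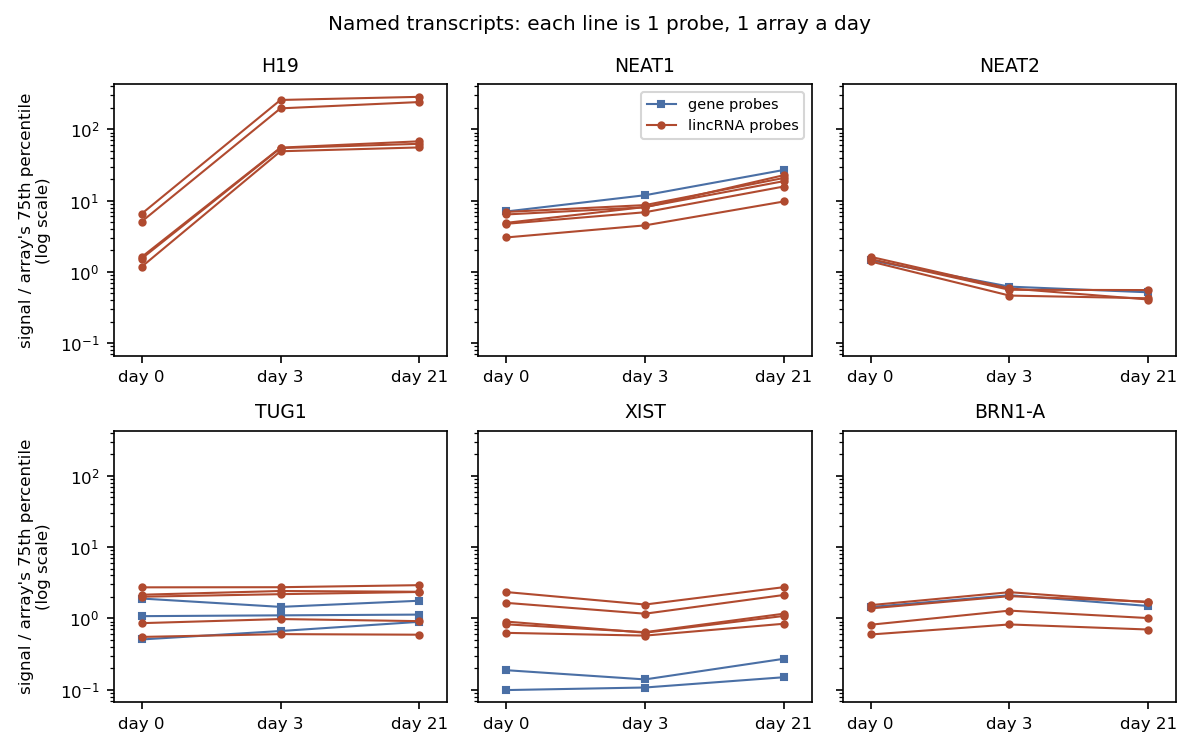
Signal of each probe divided by its array's 75th percentile (log axis) at day 0, 3 and 21 for 6 named transcripts, with lincRNA probes as circles and RefSeq-named gene probes as squares. Every H19 probe is low at day 0 and high at day 3 and 21, Neat1 is highest at day 21, and NEAT2 (Malat1) is lower at both later days.

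Most lincRNA probes were not well above background. Those that were numbered 4107 of 16246 (25.3%) at day 0, 3946 (24.3%) at day 3 and 4198 (25.8%) at day 21. Exact 95% binomial intervals, which cover counting only, were 24.6 to 26.0% at day 0 and 25.2 to 26.5% at day 21. Of 26749 gene probes named through RefSeq, 62.6, 63.2 and 65.1% were above background, and of 565 probes for RefSeq lncRNA genes 35.0, 34.9 and 38.6%. The share of gene probes was thus more than 2-fold that of the lincRNA probes on each array. A total of 3286 lincRNA probes (20.2%) were above background on all 3 arrays and 11238 (69.2%) on none. Detection on a single array concerned 389 probes for day 0, 221 for day 3 and 441 for day 21. At the level of entries, 2204, 2153 and 2228 of 4622 had at least 1 such probe, and 2569 (55.6%) had one on some array.

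The mark for detection is set mainly by the signal, so at the same signal the shares of both kinds of probe lie close together by construction. At day 0, 8.02% of lincRNA probes and 8.28% of gene probes with a signal of 8 to 12 were well above background, and 82.2 and 81.3% of those with 12 to 16. At day 21 the latter were 83.0 and 87.3%. From a signal of 16 all were, on each array. The median signal was 2.85 for lincRNA probes and 50.4 for gene probes at day 0, and 2.94 and 51.8 at day 3. Of 308 negative control spots 2, 0 and 1 were well above background on the 3 arrays, against a 0 count's upper limit of 0.974%. With entries ranked by length in 5 equal classes, the shortest class (62 to 830 bp) had 33.5% of its entries detected at day 0, and the longest 55.5%. The longest class also had the most probes an entry.

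**Figure D2:**
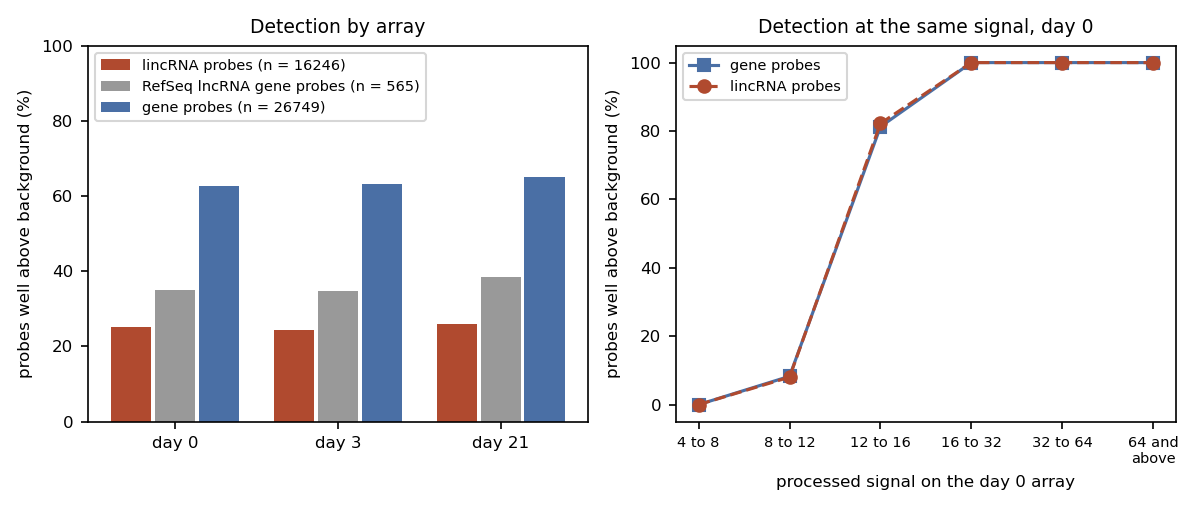
Left, the percentage of probes well above background on each array for lincRNA probes, RefSeq lncRNA gene probes and all gene probes. Right, the same percentage on the day 0 array by processed signal, where lincRNA and gene probes lie on each other: 0% below a signal of 8 and 100% from 16.

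Day 3 against day 0 asked which lincRNAs differed in the first days of induction. Of 3486 lincRNA probes measured on both arrays, 165 were higher and 193 lower past 2-fold, 10.3% together. All non-control probes gave 13.8% (6.37% higher and 7.42% lower) and gene probes 15.0%. Past 4-fold, 36 were higher and 20 lower, against 454 and 262 of all 23699 measured non-control probes. Others were above background on only 1 of the arrays. By a bound of at least 2-fold, 112 of 460 seen at day 3 only were higher. Of 621 seen at day 0 only, 178 were lower. All non-control probes gave 598 of 1648 and 553 of 1720. The median log2 difference was 0.13 for lincRNA probes and -0.10 for gene probes. When each array was scaled on the probes detected on all arrays, 60.5% of the probes past 2-fold were higher in place of 46.1%. With the spike-in scaling, 10.3% were.

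The 3 largest bounds belonged to 2 overlapping reverse-strand entries on chromosome 1. At chr1:175653557-175671940 (18384 bp) none of 3 probes was above background at day 0 and all 3 were at day 3 and day 21. One of these probes read 4.3, 766 and 1139, which is at least 74.1-fold higher at day 3, and by at least 100.8-fold at day 21. A second read 3.6, 660.5 and 877, at least 63.9-fold and 77.7-fold. A probe of the overlapping entry chr1:175654606-175672031 read 10.8, 919 and 1183, at least 83.6-fold and 98.5-fold higher. At the nearby entry chr1:175705225-175717250, 2 of 5 probes were above background at day 0 and 5 of 5 on both later days. The probe most raised read 65.5, 2376 and 2710, a log2 difference of 5.16 at day 3. On the opposite strand of that entry none of 5 probes was above background on any array.

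The probes most lowered at day 3 were on chromosome 13. At chr13:15947521-15999246, forward strand, 4 of 5 probes were above background at day 0, 2 at day 3 and none at day 21. One probe read 365, 15.7 and 8.7, which is -4.56 on the log2 scale at day 3 and at least 46.4-fold lower at day 21. Another read 186, 11.9 and 2.2, which is -3.99 at day 3 and at least 25-fold lower at day 21. Of the remaining probes, 2 read 146, 8.2 and 2.4 and 145, 4.5 and 1.9, at least 14.1-fold and 13.9-fold lower at day 3. The opposite strand had none of 5 probes above background. The next bound was that of the only probe at chr10:97196521-97207471 (reverse), which read 131, 2.4 and 2.2, at least 12.6-fold lower at day 3.

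Other lowered probes were lowest at day 3. A probe at chr2:128211990-128215223 (reverse) read 334, 30.4 and 46.8, -3.48 at day 3. A probe at chr13:108653722-108654406 (reverse) read 142, 14.4 and 32.3, -3.32 at day 3. A probe at chr19:5834117-5835940 (reverse) read 282, 31.2 and 53.9, -3.20 at day 3. Each stayed below its day 0 value at day 21. The sixth of the most lowered probes lies on chromosome 18, at -3.02, but the 4 measured probes of its entry averaged -1.31 ± 1.97.

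Some entries differed on every probe. Of 418 entries with at least 3 measured probes, 6 were past 2-fold higher and 13 lower at day 3 with each measured probe (chosen after their values were seen). The same count over genes with several probes is not given, here or below. Whether such counts are high for entries is therefore not known. H19 was 1 of the 6 higher entries. At chr3:21964899-21974524 (reverse) the 5 probes had a median signal of 41.5 at day 0, 293 at day 3 and 548 at day 21, and the mean difference at day 3 was 2.93 ± 0.14. At chr8:93337794-93348869 (reverse) the median of 3 probes was 25.5, 133 and 148 and the mean 2.49 ± 0.19. At chr5:96591892-96606467 (forward) it was 6758, 30228 and 22670, with a mean of 2.12 ± 0.06. All 3 were lowest at day 0 and higher on both later days, and the chromosome 5 entry was bright at day 0 already.

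On the lower side, chr5:15146475-15170100 (forward) had a median of 367 at day 0, 56.0 at day 3 and 912 at day 21. It was low at day 3 alone, by -2.75 ± 0.04 over 3 measured probes, and higher at day 21 than at day 0. The day 3 array is alone on its slide, and this dip cannot be told apart from it. The 2 adjoining entries, chr2:128137419-128141735 and chr2:128142035-128142481 (reverse), gave -1.61 ± 0.03 and -1.61 ± 0.04, with medians of 220, 73.8 and 51.8 and of 179, 57.8 and 31.3.

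Day 21 against day 0 compared arrays of the same slide. Of 3518 measured lincRNA probes, 268 were higher and 441 lower past 2-fold, 20.2% together. All non-control probes gave 28.5% (10.5% higher and 18% lower) and gene probes 29.1%. Past 4-fold 51 were higher and 79 lower, against 913 and 842 of all 23751 measured non-control probes. By bounds of at least 2-fold, 182 of 680 probes seen at day 21 only were higher. Of 589 seen at day 0 only, 330 were lower. All non-control probes gave 1093 of 2665 and 1049 of 1668. The medians were -0.18 for lincRNA probes and -0.22 for gene probes. The share of higher probes among those past 2-fold was 37.8%, which became 53.3% with scaling on the probes detected on all arrays and 23.3% with spike-in scaling. The direction of the whole set is therefore not settled. The probes named as most raised or lowered kept their sign under each scaling tried. They were chosen as the largest differences, so this was nearly fixed in advance and is no support.

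Of the 6 most lowered probes, 3 lie in chr9:14460976-14488051 (forward, 27076 bp), where 5 of 5 probes were above background on every array. Their signals ranged from 696 to 2777 at day 0, 352 to 1520 at day 3 and 97.1 to 370 at day 21. The entry was highest at day 0 and lowest at day 21 with each probe. The mean difference was -0.90 ± 0.11 at day 3 and -3.07 ± 0.08 at day 21, which is 8.41-fold lower. None of 5 probes on the opposite strand was above background on any array.

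Further probes among the most lowered stand on 1 measured probe each. A probe at chr10:118427606-118430070 (reverse) read 249, 34.1 and 17.5, -3.97 at day 21. A probe at chr6:131263850-131314850 (reverse) read 260.3, 61.9 and 21.3, -3.76. A probe at chr17:95149413-95174473 (forward) read 168, 86.7 and 23.0, -3.02. All 3 declined from day 0 through day 3 to day 21.

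Of 427 entries with at least 3 measured probes, 22 were past 2-fold higher and 37 lower with each of them at day 21. The entry chr3:21964899-21974524 was the largest of those given by coordinates, at 3.66 ± 0.12, 12.6-fold higher over 5 probes. The reverse-strand entry chr1:160888257-160910594 had medians of 93.5, 131 and 456, a difference of 2.21 ± 0.13. The forward-strand entry chr10:83185606-83225506 had 327, 615 and 1567, a difference of 2.13 ± 0.07. Both were highest at day 21. Among the lowered, chr5:91480533-91502237 (reverse) had 73.7, 28.3 and 12.5, at -2.67 ± 0.22, and chr17:34018371-34019394 (reverse) had 738, 466 and 123, at -2.62 ± 0.14. The entry chr19:5834117-5835940, low at day 3 already, gave -2.63 ± 0.08 over its 3 probes.

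**Figure D3:**
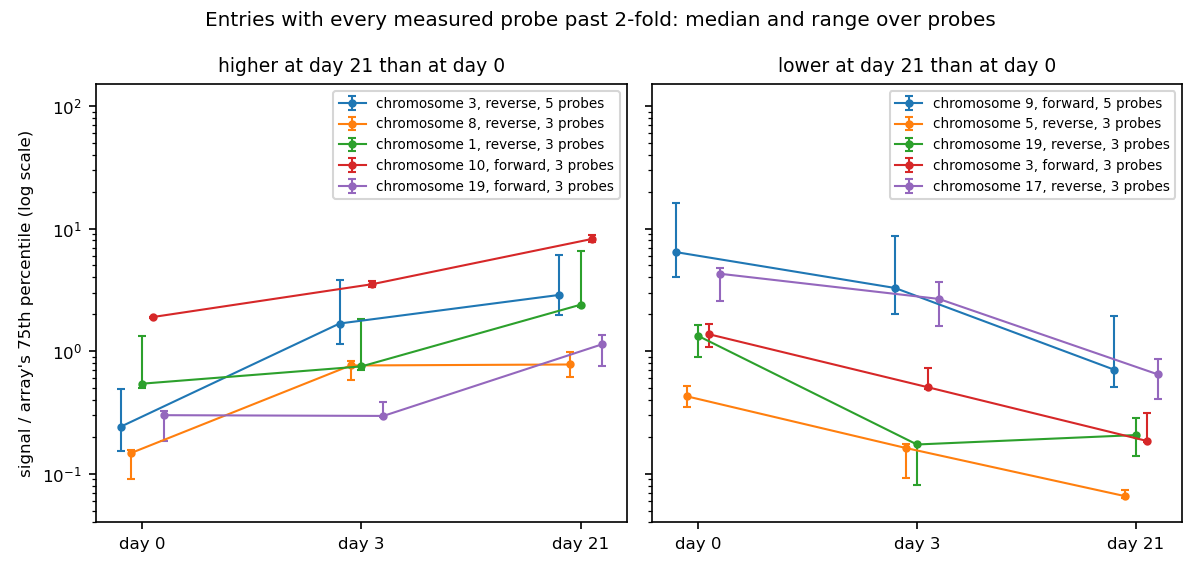
Median signal over probes, divided by the array's 75th percentile (log axis), of the 5 coordinate entries with the largest mean difference in each direction among those whose measured probes were all past 2-fold at day 21 against day 0, with bars from the lowest to the highest probe. The chromosome 3 entry on the left is already high at day 3, and the chromosome 9 entry on the right is at its lowest at day 21.

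Day 21 against day 3 gave fewer calls than day 21 against day 0 and more than day 3 against day 0. Of 3525 measured lincRNA probes, 144 were higher and 346 lower past 2-fold, 13.9% together. All non-control probes gave 16.8% (6.69% higher and 10.1% lower) and gene probes 14.6%. Past 4-fold 14 were higher and 20 lower, against 374 and 257 of all 24187 measured non-control probes. By bounds, 132 of 673 probes seen at day 21 but not day 3 were higher. Of 421 seen at day 3 but not day 21, 198 were lower. All non-control probes gave 602 of 2229 and 609 of 1160. The median was -0.31 for lincRNA probes and -0.09 for gene probes. The share of higher probes was 29.4%, but 46.6% with scaling on probes detected on all arrays and 66.0% with spike-in scaling. Slide and time cannot be told apart here.

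At chr2:136327645-136341251 (forward) the 3 probes were above background in 0, 2 and 3 of 3 cases at day 0, 3 and 21. One probe read 2.0, 12.1 and 442, a difference of 5.07 between day 21 and day 3, and at least 39.2-fold higher at day 21 than at day 0. A second read 2.0, 13.8 and 351, a difference of 4.54. Both were near background at day 3 and high at day 21. The chromosome 5 entry low at day 3, chr5:15146475-15170100, was 3.90 ± 0.08 higher at day 21 over 3 probes, and a probe of its neighbour chr5:15033568-15033987 read 97.2, 16.1 and 297, a difference of 4.07. Of its other probes, 1 was measured on both arrays and differed by 0.97 (41.5, 33.8 and 72.2), and the other was not well above background at day 3.

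Of the 6 most lowered probes in this comparison, 4 were highest at day 3. A probe at chr14:49314574-49358174 (reverse) read 3083, 6241 and 858, -2.99 at day 21 against day 3. A probe at chr7:140081171-140123058 (reverse) read 2579, 5195 and 991, -2.52. A probe at chr2:151992806-152025456 (forward) read 1089, 1764 and 375, -2.36, but its entry, with 7 measured probes, averaged -0.68 ± 0.76. In the chromosome 14 and chromosome 7 entries only 1 probe was measured. The fourth, at chr10:81615171-81615810 (forward), was not well above background at day 0 and read 79.9 at day 3 and 16.8 at day 21, -2.38. At chr10:117021051-117038683 (forward) 4 measured probes gave -1.98 ± 0.24.

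Bounds toward day 21 rested on single probes. A probe at chr17:13227704-13229876 read 2.8, 2.9 and 235 (at least 20.4-fold higher than at day 3), and it is the only probe of its entry. A probe at chr15:74320784-74321384 read 2.7, 2.8 and 123 (at least 10.7-fold), and the other probes of its entry were not above background. The single probe at chr5:108545733-108546016 read 9.4, 2.1 and 223 (at least 19.3-fold). All 3 were high at day 21 alone. A probe at chr3:127170996-127201096 was above background at day 3 only, at 128, while 2 other probes of its entry differed by -0.32 ± 0.03 between day 3 and day 0. Probes at chr1:152001112-152012796 (forward) and chr10:81589420-81591032 (reverse) were likewise above background at day 3 only, at 99.9 and 75.7, and no other probe of these entries was above background on any array. A signal on 1 array and 1 probe has no second measurement here.

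Against gene probes of the same brightness, fewer lincRNA probes were past 2-fold. Probes were banded by their mean log2 signal over all 3 arrays (bands 1 log2 wide, gene shares weighted to the lincRNA bands). In this way lincRNA and gene probes gave 10.3 and 16.9% at day 3 against day 0. They gave 20.2 and 28.0% at day 21 against day 0 and 13.9 and 17.2% at day 21 against day 3. Brightness was also taken as the brighter of the compared arrays. The differences then shrank from -6.58 to -3.49 and from -7.87 to -2.28 percentage points, and the third turned from -3.35 to 0.87. The order therefore holds for both comparisons with day 0 under each setting tried, and for the third it does not.

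The bands differed from one another. At day 3 against day 0, lincRNA probes gave 11.6% and gene probes 20.7% in the band from -2 to -1, but 13.5 and 8.04% from 5 to 6, where there were 37 lincRNA probes. In day 21 against day 0, lincRNA probes of the band from -2 to -1 gave 22.0% and gene probes 34.0%. In the band from 3 to 4 they gave 30.0 and 27%, with 90 lincRNA probes. In day 21 against day 3 the lincRNA share was above the gene share in the bands from 1 to 7, for example 22.2 against 10.5% from 3 to 4. Most of these brighter lincRNA probes past 2-fold were lower at day 21: 17.8% lower and 4.44% higher in that band. In the weighted comparison of day 21 against day 3, lincRNA probes gave 4.09% higher and 9.82% lower and gene probes 10.3 and 6.91%, and these splits move with the scaling given above.

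The spread among probes of 1 entry was set beside that among probes of 1 gene. Where an entry had at least 2 measured probes (807 entries at day 3 against day 0), the median SD between their differences was 0.25, and for genes it was 0.14. At day 21 against day 0 it was 0.25 over 824 entries and 0.16 for genes. Part of this gap went with brightness, since lincRNA probes are dimmer. At mean log2 signals from -4 to -2 the medians at day 21 against day 0 were 0.30 for entries and 0.27 for genes, and from 3 to 12 they were 0.09 for both. At day 3 against day 0 they were 0.31 and 0.26 in the dim band and 0.14 and 0.10 in the bright one, which held 31 entries. Entries with every measured probe past 2-fold numbered 12 higher and 25 lower at day 3, and 39 and 59 at day 21 against day 0. Entries with at least 1 measured probe past 2-fold numbered 153 and 276, so in most of them other probes of the entry were not past it. Opposite calls within an entry occurred in 2, 7 and 2 entries in the 3 comparisons. An interval can span more than 1 transcript, and 1245 same-strand entries overlap an earlier one, so entries are not independent.

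The strands of an interval often differed in detection. Of 1067 intervals probed on both strands, at day 0 both strands had a probe above background in 364, the forward strand alone in 220, the reverse alone in 245 and neither in 238. One strand alone was thus above background in 43.6% at day 0, 43.3% at day 3 and 43.8% at day 21. The share that strands detected independently of each other would give is not set beside these. They are therefore no measure of strand-specific transcription. With the looser mark for a positive and significant signal the share with 1 strand alone was 21.5, 23.6 and 20.8%. Where both strands were measured, their differences correlated with r = 0.19 over 302 intervals at day 3 against day 0, 0.18 over 286 at day 21 against day 0 and 0.06 over 291 at day 21 against day 3, as a description over intervals of the same arrays. At day 3 against day 0, 3 intervals were past 2-fold the same way on both strands and 40 on 1 strand alone. At day 21 against day 0 these numbered 6 and 60. At day 21 against day 3 they numbered 6 and 51, and 1 interval was past 2-fold in opposite ways. The counts that strands changing independently would give are not set beside these, so whether the overlap is low or high is not known.

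For 5 intervals, chosen by the gap in signal between their strands, detection is given strand by strand. The gap itself is no result, since probe affinity differs. At chr11:35805295-35817263 the forward probe read 7885, 4451 and 1400, and the reverse probe was not well above background on any array. At chr12:16833551-16901804 the forward probe read 2492, 3432 and 3629, and none of 5 reverse probes was above background. At chr4:141527564-141547339 the forward probe read 5102, 3865 and 6680, and the reverse probe was above background at day 0 only, at 13.8. At chr2:167085700-167117795 and chr11:22681800-22707775 both strands had probes above background. The forward probe on chromosome 11 was lower at each later day, and the chromosome 12 probe higher.

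Neighbouring intervals were also described together. Intervals at most 100 kb apart formed 428 groups of at least 3, of which 204 held a probe past 2-fold. The 5 with the most probes past 2-fold are described. They were chosen by that count, which therefore shows nothing about neighbouring intervals in general. At chr16:43623175-43642715 (3 intervals, 26 probes), 14 of 17 measured probes were at least 2-fold higher at day 21 than at day 0 and 15 of 15 at day 21 than at day 3, with medians of 1.30 and 1.66. None of 15 was past 2-fold at day 3 against day 0. The entry chr16:43623581-43642715 within it had 9 probes measured against day 3, at 1.71 ± 0.12. These intervals overlap, and their probes may read 1 transcript.

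At chr12:110653148-111080561 (14 intervals, 83 probes), 14 of 21 measured probes were at least 2-fold lower at day 21 than at day 0 and none higher, with a median of -1.45 and a range from -2.24 to 0.54. At day 3, 5 of 26 were lower. At chr17:26911032-27024356, 11 of 14 probes were higher at day 21 than at day 0, with a median of 1.69. At chr17:39960567-39992817, 12 of 20 probes were at least 2-fold lower at day 21 than at day 0, with a median of -1.10. None of 20 was past 2-fold at day 3. This group holds very bright probes, whose differences move with the scaling. Its probe at chr17:39982023-39983277 gave -0.73 at day 21 with the scaling used and 0.05 with quantile scaling. How many of the 12 stay past 2-fold with quantile scaling was not tested. At chr6:30983012-31293337, the median of 20 probes was 0.74 at day 21, 9 of them higher and 1 lower past 2-fold.

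**Figure D4:**
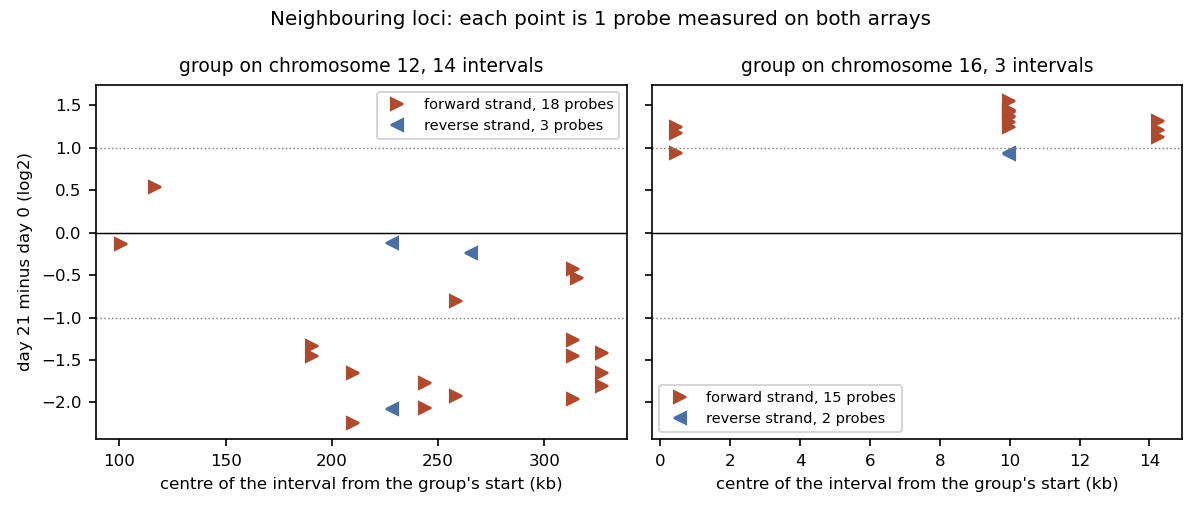
Day 21 minus day 0 (log2) of probes measured on both arrays, by the distance of their interval's centre from the start of the group, for the chromosome 12 group of 14 intervals and the chromosome 16 group of 3. Dotted lines mark 2-fold; 14 of 21 probes on chromosome 12 lie below the lower line and 14 of 17 on chromosome 16 above the upper line.

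The 10 lincRNA probes with the highest mean signal differed by -0.53 to 0.38 at day 3 against day 0. Among them the probe at chr14:78924115-78938125 (forward) read 157858, 110719 and 96805, and the probe at chr6:116092274-116144199 (forward) read 136888, 100275 and 73479. Only the second was past 2-fold at day 21 against day 0, at -1.04. It was -0.85 with scaling on the probes detected on all arrays and -0.20 with quantile scaling, so this call depends on the scaling. The differences of the 10 at day 21 ran from -1.04 to -0.15 with the scaling used. With quantile scaling they ran from -0.20 to 0.66, and most of them turned positive. A probe at -0.73, for example, gave 0.05 there. The sign of these differences therefore depends on the scaling. In the entry on chromosome 14, 2 of 7 probes were above background, so a bright probe did not mean a bright entry.

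A list of 55 lncRNA genes was set beside them through RefSeq-named probes, and 29 had such a probe. Each gene is given by 1 probe, also where it had more (3 for Meg3), and other probes of a gene can differ. At day 3 against day 0 none of 24 measured was at least 2-fold higher and 2 were lower, Malat1 and Meg3, where all non-control probes gave 6.37% higher and 7.42% lower. Meg3, an imprinted lncRNA, read 4653, 2041 and 2128, with -1.21 at day 3. Rmrp, the RNA of the mitochondrial RNA processing ribonuclease, read 491, 779 and 572, with 0.65 at day 3. At day 21 against day 0, the list's median was -0.44, with 2 of 24 higher and 7 lower, where gene probes had -0.22 and all non-control probes were higher in 10.5% and lower in 18%. Of 7 measured genes of the list named as small nucleolar RNA host genes, 3 were at least 2-fold lower at day 21. Snhg6 read 16502, 10929 and 3639 (5.02-fold lower at day 21), Snhg12 read 3983, 3353 and 1034 (4.27-fold lower) and Snhg3 2034, 1664 and 890 (2.53-fold lower). The other 4, Snhg1, Snhg7, Snhg17 and Snhg18, gave log2 differences of -0.87, -0.52, -0.84 and -0.17. Lockd, a lincRNA near a cell cycle inhibitor gene, read 801, 531 and 189 (4.70-fold lower). Mirg, an imprinted microRNA host, read 1164, 991 and 380 (3.39-fold lower). Neat1 and Mir99ahg were the 2 that were higher, and Mir99ahg, also a microRNA host, read 31.0, 28.5 and 91.5. At day 21 against day 3, 3 of 23 were higher and 5 lower, where all non-control probes gave 6.69 and 10.1%. The third higher gene was Peg13, at 1177 and 3306.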

How the data were processed

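Single-channel Agilent arrays were read from the deposited scanner files, 1 per group. Per the file headers, the intensity values are the processed signal of Feature Extraction 10.10.1.1 (the submitters' processing notes name 12.0), background-subtracted, with no scaling of one array to another. The series' deposited table repeats that intensity. Log2 of the signal was taken and each array's 75th percentile (172, 175 and 191) subtracted; outlier spots were left out, 200, 115 and 146 of 59305. Each lincRNA probe has 1 spot per array. A probe was measured when well above background on both arrays, and called at 2-fold or more; on 1 array only, an at-least fold sets the bright value over the dim one, the latter raised to the lowest detected value where it was under it. Gene probes were named by transcript accession through RefSeq (GRCm38.p6). Intervals are mm9 coordinates of the files and were given no gene name or annotation. The scanner files used hold no gene name column, so 12 entries were named by their systematic name. Named probes are the 6 most raised and 6 most lowered and the 3 largest bounds per comparison, the 10 brightest, 5 strand gaps, called named transcripts and 5 neighbour groups; listed lncRNA genes are the 4 largest differences per comparison with Malat1, Neat1, H19 and Meg3. Members and lists were chosen with earlier results of these data known. The calls were tested on simulated data. Python 3.11.15, pandas 2.3.3, R 4.3.3 and limma 3.58.1 were used.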

Additional observations from a re-analysis of the deposited data

How the results depend on the processing

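No paired analysis was possible because each group has 1 array. Leaving out an array was not possible either. Scalings moved the median of all measured probes: at day 3 against day 0 it was -0.05 with the scaling used and -0.53 with spike-in scaling, at day 21 against day 0 -0.24 and -0.46, and at day 21 against day 3 -0.16 and 0.11. The probes past 2-fold at day 3 against day 0, 358 with the scaling used, numbered 623 with spike-in scaling. In the order of the 3 comparisons, the counts of 358, 709 and 490 became 91, 269 and 119 with normexp background correction (offset 50, on the median signal, as the mean signal was not analysed here) and quantile scaling. They became 1089, 1433 and 1524 at 1.5-fold, 56, 130 and 34 at 4-fold, and 175, 339 and 281 with 1 probe an entry. With probes detected on at least 1 array they were 1029, 1544 and 1144, and without a filter on dim probes 2376, 2919 and 2592. The detected probes at day 0, 3 and 21 were 8079, 7847 and 8369 with the positive and significant mark, and 2204, 2153 and 2228 as entries. With that mark the share of intervals with 1 strand above background was 21.5, 23.6 and 20.8%. The gap to gene probes of the same brightness was -3.49, -2.28 and 0.87 points with the brighter array as brightness and -2.38, -3.59 and -1.91 with normexp. After seeing the data, the median of the lincRNA probes was also set equal between arrays: 38.0, 49.5 and 63.3% of the probes past 2-fold were then higher. The spread within entries by brightness and the scalings of the brightest probes were also added then. No sign of a probe named as most raised or lowered turned under any scaling, which their choice as the largest differences nearly fixed in advance. The remaining counts stayed within 1.5 times. Signal over background limits detection: probes under a signal of 8 were never marked.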
